A study of Mus musculus with 24 samples.

Results

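MicroRNAs of the mouse lens were compared between postnatal day 3 (P3) and the day of birth (P0), in 4 small-RNA libraries out of the 24 libraries of the series. Every row of the deposited miRNA tables entered: of 1908 miRNAs, 777 reached a value of 1 in 2 or more of the 12 small-RNA libraries and were tested, and 1131 were below that level and were not. The series holds whole lenses of C57BL/6 mice at E15, E18, P0, P3, P6 and P9, each stage as pools A and B for small RNA and for mRNA, and the labels name no treatment. Each pool was made from 8 to 9 pups, so that a library averages over animals and over all cells of the dissected organ, and fewer cells of a type cannot be told from less RNA per cell. The labels do not tie pool A of the small-RNA set to pool A of the mRNA set. The mRNA tables carried the defining genes of lens at high levels: the 10 fiber markers (crystallins, Mip, Bfsp1, Bfsp2 and Lim2) summed to 149708 and 141098 RPKM at P0 and to 142175 and 139402 RPKM at P3.

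A miRNA is cut from a hairpin by Drosha and Dicer, and the strand loaded into Argonaute (the guide) pairs with target mRNAs mainly through its seed, bases 2 to 8, and lowers their translation and stability. The opposite strand (the passenger) is mostly degraded. In the lens, miR-184 and miR-204 are known as abundant miRNAs. The lens at this age is growing by the continued division of an anterior epithelium and the differentiation of its daughters into fiber cells that fill with crystallin and lose their organelles.

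The sequences below are those the results turn on, from RefSeq on the GRCm38.p6 assembly, written 5′ to 3′ with the seed in capitals. The first set holds the guides of the miR-183 cluster, cut from a single transcript on chromosome 6, and miR-9-5p, all of them higher at P3. None of these 4 share a seed.
miR-183-5p: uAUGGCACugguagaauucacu
miR-96-5p: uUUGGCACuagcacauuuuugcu
miR-182-5p: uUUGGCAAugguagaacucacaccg
miR-9-5p: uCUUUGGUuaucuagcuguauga

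The second set holds let-7 guides, which carry the same seed and were higher at P3 except let-7e-5p, and let-7g-3p, the passenger strand that went the other way from its guide.
let-7c-5p: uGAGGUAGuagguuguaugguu
let-7f-5p: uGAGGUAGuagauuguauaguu
let-7e-5p: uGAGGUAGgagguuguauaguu
let-7g-5p: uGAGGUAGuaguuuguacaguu
let-7g-3p: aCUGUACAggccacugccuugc

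The third set holds strands that were lower at P3, with pairs that share a seed: miR-99b-5p and miR-100-5p, miR-17-5p with miR-106b-5p, and miR-146b-5p with miR-146a-5p, which was not called.
miR-184-3p: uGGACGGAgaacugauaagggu
miR-99b-5p: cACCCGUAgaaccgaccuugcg
miR-100-5p: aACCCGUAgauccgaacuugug
miR-31-3p: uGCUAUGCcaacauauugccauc
miR-345-5p: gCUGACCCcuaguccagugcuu
miR-17-5p: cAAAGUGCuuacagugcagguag
miR-106b-5p: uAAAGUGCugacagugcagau
miR-146b-5p: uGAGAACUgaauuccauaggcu
miR-146a-5p: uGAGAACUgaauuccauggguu

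The P3 pools differed from each other more than the pools of any other stage. The median absolute log2 difference between pools A and B was 0.51 at P3, against 0.20 at P0, 0.19 at P6 and at most 0.32 at the other stages, and 159 tested miRNAs lay more than 1 log2 unit apart at P3, against 21 to 64 elsewhere. Pool A of P3 listed 730 miRNAs above 0, against 886 to 1068 in the other 11 small-RNA libraries, and 103 of the tested miRNAs were at 0 in it, against 4 to 37 elsewhere. For 78 of these the value was above 0 in P3 B and in both P0 pools. The deposited values (signal, a normalized abundance whose depth is unknown) summed to 764009 and 776863 in the P3 pools and to 816361 and 816619 in the P0 pools. Of 45 called miRNAs that the naming rule picked, those no longer called without P3 A or without P3 B are given as such beside their values. More of them were lost without P0 A or without P0 B, and these losses are not marked beside the values. A value without a mark is thus not a call that held in every run. The calls that did, apart from rescaling with a P3 pool left out, are named at the end. miR-184-3p, let-7c-5p and miR-106b-5p are not among them.

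At an adjusted p below 0.05, 31 miRNAs were higher at P3 than at P0 (3.99% of those tested) and 132 were lower (17.0%). The test was limma's moderated test on log2(value + 1) over all 12 small-RNA libraries, with the spread pooled over 6 stages of 2 pools, and with Benjamini-Hochberg adjustment over 777 miRNAs. Since the P3 pools differed more than those of other stages, a spread pooled over stages can understate the error of this contrast. Each SE and adjusted p given for it carries that limit. With library weights, which weighted the P3 pools at 0.339, 19 of the 31 higher and 67 of the 132 lower calls were kept. With 2 pools against 2, an exact permutation test of a single miRNA cannot go below p = 0.333, and nothing in the labels separates biological from technical spread beyond the separate pools. The pools did not overlap for any of the 163 called miRNAs, while 14.3% of all tested miRNAs had both P3 pools above both P0 pools and 43.8% had both below. The median log2 difference of all tested miRNAs was -0.29, with -0.40 from P3 A and -0.22 from P3 B. Rescaling every library by its median ratio to the others brought that median to -0.02 and turned the split into 55 higher (7.08%) and 48 lower (6.18%). All 31 higher calls and 48 of the 132 lower calls were among the calls after rescaling. Counts given below after rescaling, or without a pool, are to be set against the share called in that same run. Without P3 A, 27 were higher (3.47%) and 65 lower (8.37%), and without P3 B, 64 were higher (8.24%) and 228 lower (29.3%). Without P0 A the counts were 8 and 13, and without P0 B 20 and 43. In the same fit, P6 against P0 gave 19 higher (2.45%) and 97 lower (12.5%), and P6 against P3 gave 95 higher (12.2%) and 102 lower (13.1%), in comparisons that share libraries with this one.

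**Figure D1:**
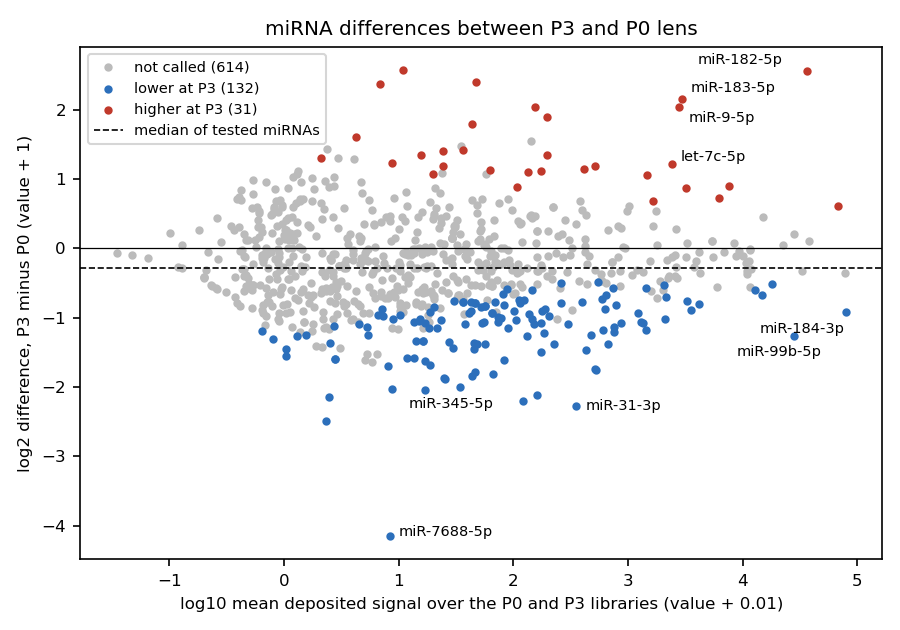
Log2 difference P3 minus P0 (vertical axis, on value + 1) against the log10 mean deposited signal over the P0 and P3 libraries (horizontal axis, value + 0.01) for 777 tested miRNAs. The 31 red points were called higher and the 132 blue points lower, and the dashed line marks the median of -0.29; miR-182-5p stands highest among the abundant miRNAs.

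The largest rises were in the miR-183 cluster, whose 3 hairpins lie within chr6:30165923-30169732 on the minus strand and whose miRNAs are known from photoreceptors and other sensory cells. Of its 6 tested strands, 5 were higher (against 3.99% of all tested miRNAs) and none lower. Their median log2 difference was 2.28 (2.60 after rescaling, where all 6 were called). The deposited signal of miR-182-5p was 12002 and 9202 at P0 (pools A and B) and 58573 and 65664 at P3. Both P3 pools lay far above either P0 pool, and the difference was 2.56 ± 0.26 (SE, adjusted p = 8.4e-05). It stayed at 69495 and 61050 at P6, and had been 32045 and 30851 at E18, so that P0 was the low stage between higher neighbours.

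miR-183-5p measured 1263 and 894 at P0 and 3965 and 5663 at P3. The difference was 2.16 ± 0.27 (SE, adjusted p = 0.000504), and again no P0 pool reached a P3 pool. miR-96-5p, at 69.6 and 48.7 at P0 and 186 and 319 at P3, rose by 2.04 ± 0.33 (SE, adjusted p = 0.00199). The passenger strands of the outer hairpins rose too: miR-182-3p went from 3.03 and 1.79 to 15.6 and 22.9 (log2 2.57, adjusted p = 0.00139), and miR-183-3p from 16.7 and 12.01 to 85.5 and 73.2 (log2 2.40, adjusted p = 0.000512). miR-96-3p, the sixth strand, was not called, at 1.70 and 2.00 against 8.18 and 4.30. These 5 calls held without P3 A and without P3 B.

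Of 9 listed miRNAs of neural and retinal cells, 4 were higher (against 3.99% of all tested miRNAs) and none lower, with a median log2 difference of 0.55. miR-9-5p, which acts in neural progenitors and their differentiation, measured 1316 and 902 at P0 and 4080 and 4930 at P3. The P3 values were both higher than either P0 value, and the difference was 2.04 ± 0.27 (SE, adjusted p = 0.000512). At E18 it had been 5147 and 4868 and at P6 it was 3026 and 2780, again above P0. miR-124-3p, the most neuron-specific of the list, rose from 93.4 and 72.9 to 272 and 355 (log2 1.90 ± 0.32, SE, adjusted p = 0.00239). miR-9-3p (log2 1.79) and miR-129-5p (log2 1.24, adjusted p = 0.0733 without P3 B) were the other members called, while miR-128-3p (0.55), miR-138-5p (0.40), miR-129-2-3p (-0.07), miR-219a-5p (-0.60) and miR-137-3p (-1.04) did not pass.

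Photoreceptor and retinal mRNAs also stood at higher summed levels at P3, with 1 of 13 markers called higher. The 13 listed marker genes summed to 29.8 and 29.2 RPKM at P0 and to 53.0 and 83.8 RPKM at P3, against 145 and 156 RPKM at E18 and 75.5 and 47.6 RPKM at P6. Sag, the rod arrestin, was the marker that passed in the fit of all 14405 tested genes, at 0.075 and 0.262 RPKM at P0 and 3.78 and 7.20 RPKM at P3 (log2 2.43, adjusted p = 0.0249). In that fit 51 genes were higher (0.354%) and 24 lower (0.167%). Nrl, a rod transcription factor, measured 0.645 and 0.435 RPKM at P0 and 3.505 and 8.532 RPKM at P3 (adjusted p = 0.0540), and Crx, a photoreceptor factor, 2.92 and 2.43 RPKM against 9.30 and 14.3 RPKM (adjusted p = 0.176). No member of the list was at 0 in these 4 libraries, and its part in the rise of the miR-183 cluster and of miR-9 was not tested.

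**Figure D2:**
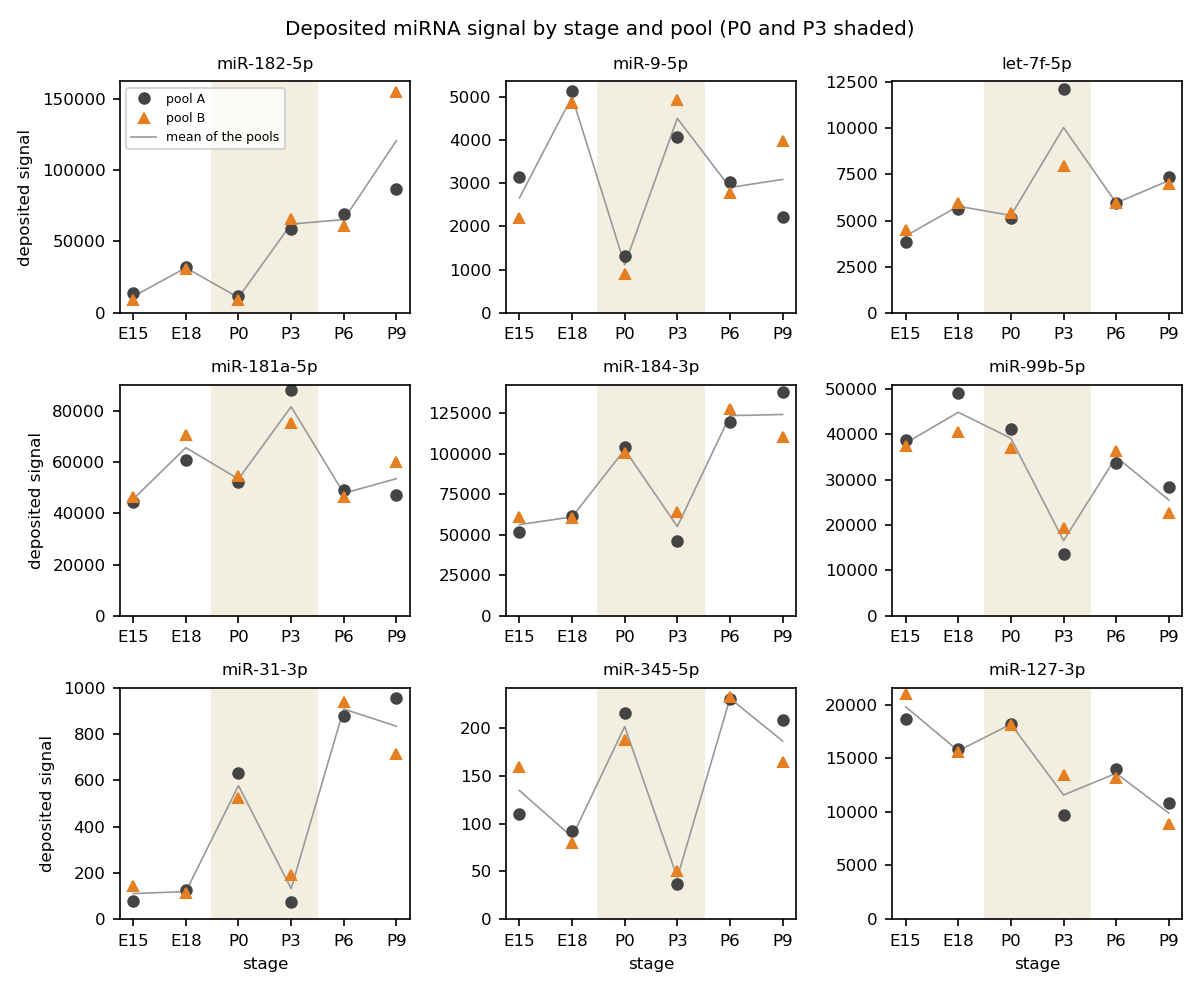
Deposited signal (vertical axis, from 0) of 9 miRNAs at each of the 6 stages (horizontal axis), with pool A as circles, pool B as triangles and a line through the mean of the pools; P0 and P3 are shaded. miR-182-5p and miR-9-5p were low at P0, while miR-184-3p, miR-99b-5p, miR-31-3p and miR-345-5p were low at P3 between higher values at P0 and P6.

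Most let-7 guides rose. let-7 is known as a family whose members accumulate as cells leave the progenitor state. Of 9 guides with the let-7 seed GAGGUAG, 7 were higher (against 3.99% of all tested miRNAs) and none lower, and 8 were called after rescaling. Their median log2 difference was 0.88, against -0.29 over all tested miRNAs. let-7c-5p measured 1332 and 1479 at P0 and 4255 and 2510 at P3. Each P3 pool was above each P0 pool, though pool A stood well above pool B, and the difference was 1.22 ± 0.26 (SE, adjusted p = 0.00628). let-7f-5p, which had the highest signal of the family, rose from 5153 and 5397 to 12133 and 7962 (log2 0.90 ± 0.19, SE, adjusted p = 0.00628), and stood at 5954 and 5956 at P6, near its P0 values.

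The differences of the other called let-7 guides were 1.36 for let-7b-5p, 1.19 for let-7d-5p, 0.88 for let-7i-5p, 0.73 for let-7a-5p and 0.69 for let-7g-5p. let-7e-5p (0.29, adjusted p = 0.323) and miR-98-5p (0.40, adjusted p = 0.102) carry the same seed and did not pass. All of these differ by few bases, so that short reads may be shared between members, and how the authors' counting treated such reads was not known here. let-7j, which has a different seed (GAGGUAU), rose by 1.14 (adjusted p = 0.00581). Without P3 A, 6 of the guides were called, and without P3 B, 8.

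miR-181a-5p, from 2 loci, measured 52292 and 54605 at P0 and 88105 and 75272 at P3. Its P3 values exceeded both P0 values, with a difference of 0.61 ± 0.17 (SE, adjusted p = 0.0255), and at P6 it was 49224 and 46533. The call was lost without P3 A (adjusted p = 0.108). miR-181b-5p, miR-181c-5p and miR-181d-5p carry the same seed, and none was called, with differences of 0.45, -0.12 and 0.04.

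Myeloid miRNAs included 2 higher of 4 tested, against 3.99% of all tested miRNAs. miR-142-5p measured 79.5 and 143 at P0 and 199 and 271 at P3 (log2 1.12 ± 0.32, SE, adjusted p = 0.0278), and miR-142-3p from the same hairpin 10.2 and 14.7 against 23.1 and 31.4 (log2 1.08, adjusted p = 0.0488). The miR-142-5p call was lost without P3 B (adjusted p = 0.0798), and the miR-142-3p call without P3 A (adjusted p = 0.0642) and without P3 B (adjusted p = 0.116). miR-223-3p (0.58) and miR-223-5p (0.90), known from granulocytes, did not pass. The 11 macrophage mRNAs summed to 23.9 and 47.4 RPKM at P0 and 72.0 and 63.9 RPKM at P3, with none called, and their part in the miR-142 difference was not tested.

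Of the erythroid miRNAs, 1 of 4 was higher, against 3.99% of all tested miRNAs: miR-144-5p, at 12.4 and 28.8 at P0 and 48.4 and 56.7 at P3 (log2 1.42, adjusted p = 0.0102). miR-144-3p (1.47, adjusted p = 0.0702) and miR-486-5p, the most abundant of the list (0.11, adjusted p = 0.738), did not pass. miR-451a, which matures in red cells, was 182 and 381 at P0 and 169 and 490 at P3, so that the P3 pools enclosed both P0 pools. Of 12 listed erythroid genes, 7 were in the mRNA tables, and they summed to 66.2 and 153 RPKM at P0 and 719 and 595 RPKM at P3. Hba-a2, Hbb-b1 and Alas2 were called higher, against 0.354% of all tested genes. The part of blood in these miRNA differences was not tested.

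Other rises were in single miRNAs. miR-375-3p was chosen after its values were seen. This miRNA, known from endocrine and sensory cells, went from 851 and 1009 at P0 to 2458 and 1523 at P3 (log2 1.06, adjusted p = 0.0063). miR-497-5p was the 1 member of 6 in the miR-15 and miR-16 family to be called, at 41.2 and 36.5 against 94.5 and 78.4 (log2 1.13, adjusted p = 0.0113), and the call was lost without P3 A (adjusted p = 0.0552). miR-195a-5p, its neighbour in that family, was at 0.69 (adjusted p = 0.0963), and miR-15a-5p, miR-15b-5p and miR-16-5p lay between -0.06 and 0.08. miR-10b-5p had a difference of 1.55 ± 0.57 (SE) without a call (adjusted p = 0.0702). Its P3 pools were at 127 and 310, both above the P0 pools at 81.7 and 55.4.

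Marker mRNAs of other cells were taken from the same mRNA fit, where 0.354% of all tested genes were higher and 0.167% lower. Of 6 mesenchymal genes, 2 were higher: Dcn, a matrix proteoglycan, at 0.297 and 0.385 RPKM at P0 and 21.1 and 3.95 RPKM at P3 (log2 2.97, adjusted p = 0.0357), and Lum, at 0.041 and 0.067 RPKM against 6.775 and 2.373 RPKM (log2 2.28, adjusted p = 0.00919). The list summed to 17.8 and 16.5 RPKM at P0 and 57.6 and 26.1 RPKM at P3, with P3 A the higher pool. Of the endothelial, mural, pigment, corneal and lens epithelial markers, none was called. The part of these cells in the miRNA differences was not tested.

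miR-184-3p, a miRNA of lens and corneal epithelium, led the falls by signal. It measured 104279 and 100699 at P0 and 46256 and 63941 at P3. Both P3 pools were below both P0 pools, with a difference of -0.91 ± 0.19 (SE, adjusted p = 0.00624), of -0.58 after rescaling (adjusted p = 0.0468), and the P6 pools were back at 119605 and 127339. Its passenger miR-184-5p, at 114 and 95.4 against 46.4 and 75.03, had a difference of -0.81 (adjusted p = 0.0279), which missed the threshold after rescaling (adjusted p = 0.159) and without P3 A (adjusted p = 0.179).

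miR-99b-5p, a member of the miR-99 and miR-100 family that is known to target Mtor, fell from 41224 and 36972 at P0 to 13725 and 19419 at P3. The pools were well apart, and the difference was -1.26 ± 0.19 (SE, adjusted p = 0.00139), with 33748 and 36243 at P6. miR-100-5p, with the same seed ACCCGUA, fell from 735 and 893 to 418 and 463 (log2 -0.88, adjusted p = 0.0102), while miR-99a-5p (-0.32) did not pass. These were the 2 lower of 7 tested in the list that also holds miR-10 and miR-125, against 17.0% of all tested miRNAs. After rescaling, 1 member of the list was lower, miR-99b-5p. miR-99b shares a locus at chr17:17830194-17830876 with let-7e and miR-125a, and of the 6 strands tested from it miR-99b-5p was the 1 called: its own passenger miR-99b-3p was at -0.28 (adjusted p = 0.306), miR-125a-5p at -0.21 and let-7e-5p at 0.29.

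Some less abundant strands fell further. miR-345-5p measured 216 and 188 at P0 and 36.3 and 50.5 at P3. No P3 pool came near a P0 pool, and the difference was -2.20 ± 0.23 (SE, adjusted p = 9.2e-05), with 230 and 232 at P6. miR-31-3p measured 632 and 524 at P0 and 72.8 and 191 at P3 (log2 -2.27 ± 0.37, SE, adjusted p = 0.00175), and 878 and 941 at P6. Its P3 pools were both low, and pool A was lower than pool B. It is the minor strand of its hairpin here: miR-31-5p, the more abundant strand, measured 8821 and 9283 at P0 and 9039 and 7771 at P3, and was not called (log2 -0.11, adjusted p = 0.686). miR-345-3p, the strand opposite miR-345-5p, was the weaker by its mean over the P0 and P3 libraries (66.8 against 122). That mean lies above both P3 values of miR-345-5p. The difference of miR-345-3p was -0.26 (adjusted p = 0.333).

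The list of muscle and liver miRNAs had 8 members in the tables, of which 6, all muscle miRNAs, were tested. Of these, 3 were lower (against 17.0% of all tested miRNAs) and none higher, and 2 were lower after rescaling. miR-133b-3p went from 279 and 240 at P0 to 47.9 and 73.4 at P3 (log2 -2.11 ± 0.33, SE, adjusted p = 0.00163) and was at 495 and 508 at P6. miR-1a-3p, at 346 and 302 against 87.9 and 176, had a difference of -1.37 (adjusted p = 0.00502), and miR-499-5p, at 201 and 185 against 79.1 and 113, a difference of -1.02 (adjusted p = 0.0319) whose call was lost without P3 A (adjusted p = 0.179). The remaining members, miR-133a-3p, miR-206-3p and miR-208b-3p, did not pass. miR-133a-3p, the most abundant of those tested, was at 7691 and 6592 against 5453 and 4288 (log2 -0.56, adjusted p = 0.0713). Whether its row and that of miR-133b-3p share reads was not known here. miR-1b-5p, from 1035 and 880 to 258 and 523, fell by 1.37 on the log2 scale, and that call was lost without P3 A. Its difference equalled that of miR-1a-3p in the digits given. Whether these rows share reads was not known here, so miR-1b-5p is not a separate fall.

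miR-146b-5p, known from inflammatory signalling, went from 257 and 262 at P0 to 79.8 and 105 at P3 (log2 -1.49 ± 0.22, SE, adjusted p = 0.00127). miR-146a-5p, with the seed GAGAACU in common, was 24.6 and 57.2 at P0 and 37.5 and 32.6 at P3, and its pools overlapped. miR-582-5p went from 855 and 756 to 167 and 341 (log2 -1.75, adjusted p = 0.00274). It is the minor strand too, and miR-582-3p, at 2204 and 2197 against 1547 and 1622, was not called (log2 -0.47, adjusted p = 0.189). miR-384-3p went from 861 and 686 to 146 and 359 (log2 -1.74, adjusted p = 0.00319). miR-331-3p, at 639 and 574 against 122 and 391.6, was called with a difference of -1.47 (adjusted p = 0.0171) that rested on pool A: without it the adjusted p was 0.0745.

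**Figure D3:**
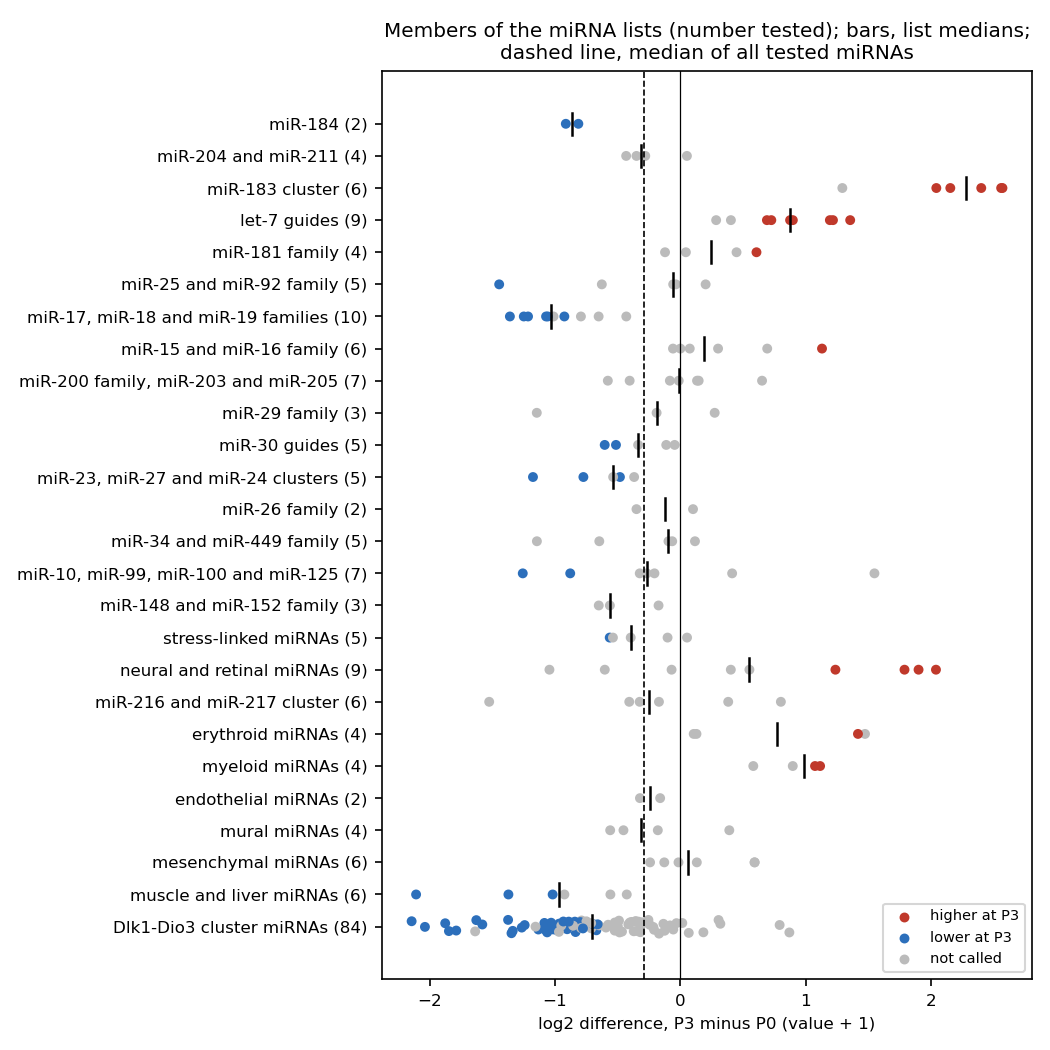
Log2 difference P3 minus P0 (horizontal axis) of each tested member of 26 miRNA lists (rows, with the number tested), with list medians as bars, called miRNAs in red or blue, and the median of all tested miRNAs as a dashed line at -0.29. The miR-183 cluster and let-7 guides lie to the right, and the miR-17, miR-18 and miR-19 families and the Dlk1-Dio3 cluster to the left of that line.

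The miR-17, miR-18 and miR-19 families, which promote proliferation, had 6 lower (against 17.0% of all tested miRNAs) and none higher of 10 tested. Their median log2 difference was -1.04 (-0.70 after rescaling, with 3 called). miR-17-5p went from 1691 and 1515 at P0 to 690 and 1028 at P3 (log2 -0.93, adjusted p = 0.00628). miR-106b-5p, with the same seed AAAGUGC, went from 688 and 644 to 225 and 346 (log2 -1.25 ± 0.23, SE, adjusted p = 0.00305). The P3 pools were lower in both, with pool A the lower. The number called was 2 without P3 A, where miR-18a-5p (adjusted p = 0.0808) and miR-20b-5p (adjusted p = 0.115) were among those lost, and 9 without P3 B.

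Not every strand of the polycistrons these miRNAs come from was called. From the miR-17 to miR-92a-1 cluster (chr14:115043684-115044496), 5 of 11 tested strands were lower, but miR-92a-3p, which also has a copy on the X chromosome, was at 24689 and 26665 at P0 and 35662 and 24425 at P3 (log2 0.20, adjusted p = 0.469). In the miR-106b cluster (chr5:138165332-138165807), miR-106b-5p was called, while miR-93-5p (-0.43, adjusted p = 0.0620) and miR-25-3p (-0.06, adjusted p = 0.816) were not. Mcm7, the gene whose intron holds that cluster, was 10.3 and 10.4 RPKM at P0 and 10.3 and 13.8 RPKM at P3 (adjusted p = 0.832). The difference between neighbours was not itself tested.

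**Figure D4:**
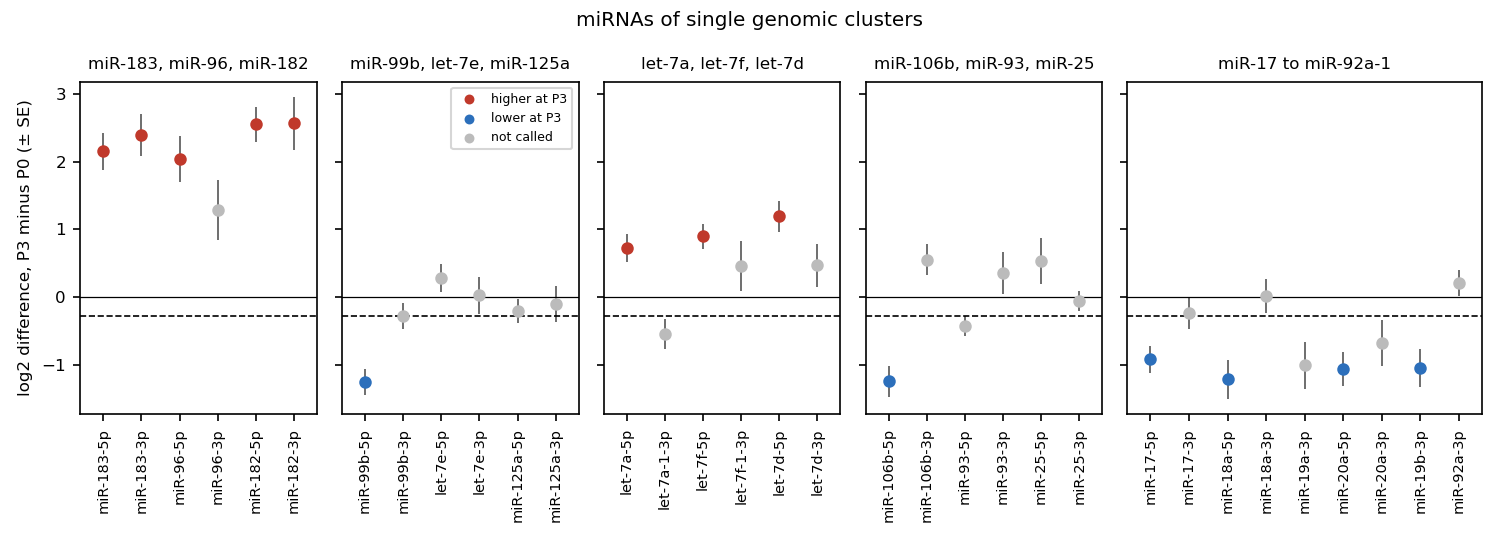
Log2 difference P3 minus P0 with its standard error (vertical axis) of the tested strands of 5 genomic clusters (panels; in the last, 9 of 11 strands), coloured by call, with the median of all tested miRNAs dashed. The miR-183 cluster was higher in 5 of 6 strands, whereas miR-99b-5p and miR-106b-5p were the 1 called strand of 6 in their clusters.

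The Dlk1-Dio3 domain on chromosome 12, an imprinted region whose noncoding RNAs are expressed from the maternal chromosome, gave the longest of the 26 lists. Of 84 tested members, 33 were lower (against a background of 17.0%) and none higher, with a median log2 difference of -0.70. After rescaling, 15 were lower, against 6.18% of all tested miRNAs, and the median was -0.43. Fewer were lower without P3 A, and without P3 B more were lower and some were higher. The share of all tested miRNAs called lower moved the same way in these runs. Taken by genomic position rather than by name, 27 of 60 tested miRNAs were lower in the block at chr12:109709065-109747949. In the block at chr12:109563710-109595387, 5 of 21 were lower, not far above the 17.0% of all tested miRNAs. Between these blocks, in the group at chr12:109611521-109618326, 3 of 6 were lower.

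miR-127-3p, which is antisense to Rtl1, had the highest signal among the called members, at 18229 and 18112 at P0 and 9732 and 13395 at P3. Its pools did not overlap and the difference was -0.67 ± 0.18 (SE, adjusted p = 0.0191), with 14029 and 13148 at P6, and the call was lost without P3 A (adjusted p = 0.116). miR-541-5p went from 4632 and 4508 to 2256 and 2691 (log2 -0.89, adjusted p = 0.00322), miR-381-3p from 2903 and 2674 to 1348 and 1414 (log2 -1.01, adjusted p = 0.00652). miR-411-3p, at 181 and 189 against 78.9 and 73.7, fell by 1.27 on the log2 scale (adjusted p = 0.00229). Its value at P6, 96.4 and 103, was between the P0 and P3 values. Among weak members, miR-412-3p (-2.14), miR-154-5p (-2.04) and miR-299a-5p (-1.88) had the largest differences, and miR-412-3p was at 5.83 and 3.41 against 0 and 0.54. The miR-154-5p call was lost without P3 A (adjusted p = 0.0823) and the miR-299a-5p call without P3 B (adjusted p = 0.0562).

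Several lens and housekeeping families held few calls. miR-204-5p, whose host is Trpm3 and which is known to be controlled by Pax6, was 86980 and 84985 at P0 and 86261 and 52750 at P3: pool A lay within the P0 values and pool B well below. The difference of -0.35 was not called (adjusted p = 0.268), it was called without P3 A (adjusted p = 0.0356) and was 0.00 without P3 B. Neither miR-211-5p, its family member in pigment cells, nor any other of the 4 tested strands passed. miR-26a-5p (0.10), miR-22-3p (0.05) and miR-126b-3p (-0.33), all of high signal, did not pass either. miR-126a-5p, from the opposite strand of the miR-126b locus, had nearly the same difference (-0.32), and whether these rows share reads was not known here.

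In the remaining lists, the miR-23, miR-27 and miR-24 clusters had 3 of 5 lower (miR-24-3p -1.18, miR-23a-3p -0.77, miR-23b-3p -0.48), the miR-30 guides 2 of 5 (miR-30e-5p -0.60, miR-30a-5p -0.51), the miR-25 and miR-92 family 1 of 5 (miR-32-5p -1.45), and the stress-linked miRNAs 1 of 5 (miR-210-3p, the hypoxia miRNA, -0.56). After rescaling, 1, 0, 1 and 0 of these were called. Without P3 A, miR-24-3p was the 1 of these 7 that was called: the adjusted p was 0.0539 for miR-23a-3p, 0.206 for miR-23b-3p, 0.0835 for miR-30e-5p, 0.17 for miR-30a-5p, 0.0609 for miR-32-5p and 0.0698 for miR-210-3p. With 17.0% of all tested miRNAs lower, 1 call in a list of 5 is near the background. The miR-200 family with miR-203 and miR-205 (7 tested), miR-29 (3), miR-34 and miR-449 (5), miR-148 and miR-152 (3), miR-216 and miR-217 (6), miR-26 (2), and the endothelial (2), mural (4) and mesenchymal (6) lists held no call. Beside miR-26a-5p, their most abundant members gave differences of 0.65 for miR-203-3p, -0.19 for miR-29c-3p, -0.09 for miR-34c-5p, -0.56 for miR-148a-3p, 0.38 for miR-217-5p, -0.32 for miR-126a-5p, -0.18 for miR-143-3p and 0.59 for miR-199a-3p. Outside all lists lay 89 called miRNAs, 10 higher and 79 lower.

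miR-7688-5p was chosen after its values were seen. It stood at 18.3 and 15.3 at P0, was listed at 0 in both P3 pools, and was 18.1 and 16.2 at P6. Since the depth is unknown, no fold is given for it. Of the 777 tested miRNAs, 16 were at 0 in both P3 pools.

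Where both strands of a hairpin were tested (246 pairs), 101 pairs had at least 1 strand called and 22 had both. Of all tested miRNAs, 3.99% were called higher and 17.0% lower. In 21 of the 22 the strands were called the same way, 5 higher and 16 lower. The exception was let-7g, whose guide rose (1247 and 1278 to 2117 and 1964, log2 0.69, adjusted p = 0.00859) and whose 3p strand fell (7.71 and 8.42 to 2.54 and 3.13, log2 -1.24, adjusted p = 0.0152, and 0.0583 without P3 A). Of 67 seeds shared by at least 2 tested miRNAs, 8 had at least 2 members called and none had calls in both directions. Of 47 clusters of at least 2 hairpins within 10000 bases on a strand, 29 held a call and none held calls in both directions. These counts follow families and transcripts whose members share sequence, so that they are not independent. miR-299a and miR-299b, from opposite strands of a locus, both count among the lower pairs. Calls in the same direction also follow in part from the excess of lower calls over all tested miRNAs.

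Host genes were set beside their miRNAs. Of 29 tested host genes, 1 was called, in a fit that called 0.354% of all tested genes higher and 0.167% lower. The called host was H19, an imprinted growth-restricting RNA. It went from 180 and 212 RPKM at P0 to 67.6 and 69.9 RPKM at P3 (log2 -1.49, adjusted p = 0.00786). Both strands of miR-675, which is cut from its first exon, were lower too, with miR-675-3p at 14.9 and 14.3 against 3.32 and 2.41 (log2 -2.02, adjusted p = 0.00319), though the miR-675-5p call was lost without P3 A (adjusted p = 0.0975). Igf2, the neighbouring growth factor gene, measured 35.6 and 34.1 RPKM at P0 and 22.9 and 22.1 RPKM at P3 (log2 -0.61, adjusted p = 0.231), and miR-483-5p from its intron 25.8 and 16.0 against 7.87 and 4.70 (log2 -1.59, adjusted p = 0.00624). Mest, also imprinted, had values of 76.3 and 88.4 RPKM against 113 and 111 RPKM (log2 0.45, adjusted p = 0.341), while its intronic miR-335-5p was lower by the test (log2 -0.57, adjusted p = 0.0384, and 0.19 without P3 A). Of the 35 miRNAs with a tested host, 13 were lower, against 17.0% of all tested miRNAs, and 1, let-7g-5p, was higher, against 3.99%. Both strands of miR-675, of miR-483 and of miR-335 are among the 13, so that these are not independent. The hosts were chosen with earlier results of these data known.

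**Figure D5:**
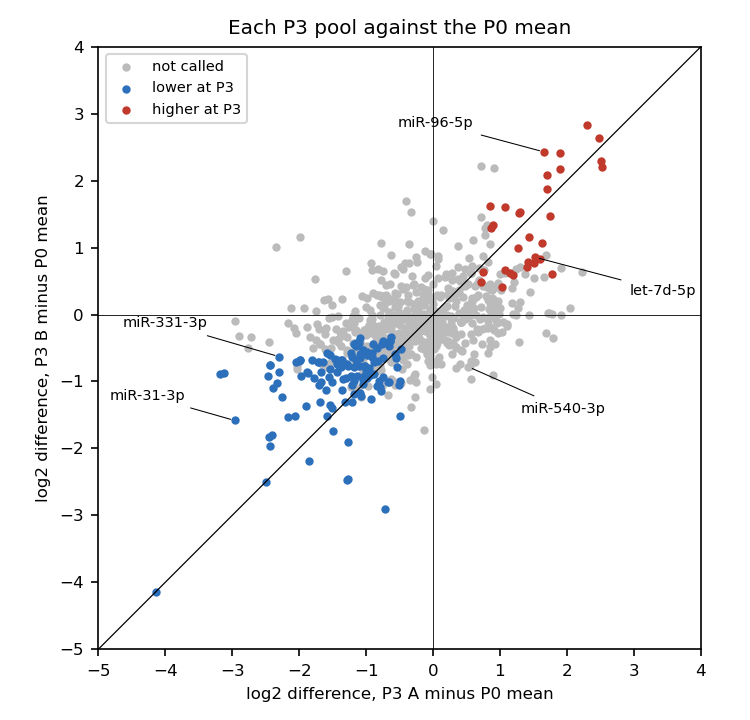
Log2 difference of P3 A (horizontal axis) and of P3 B (vertical axis) from the mean of the P0 pools for each tested miRNA, on value + 1, with called miRNAs in red (higher) and blue (lower) and the line of equal values. Both axes share the P0 libraries; most blue points lie above the line, and P3 A was further from P0 than P3 B in 103 of the 132 lower calls and in 18 of the 31 higher calls.

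P3 A was further from the P0 mean than P3 B in 515 of the 777 tested miRNAs and in 121 of the 163 called. Among miRNAs with a mean of at least 100, those that differed most between the P3 pools were miR-451a and miR-331-3p, given above, miR-328-3p (332 in A and 129 in B, against 169 and 179 at P0), miR-540-3p (230 in A and 92.2 in B, against 164 and 155) and miR-31-3p. Neither miR-328-3p nor miR-540-3p was called, since pool A lay above and pool B below P0.

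The difference between the P3 pools was weakly related to the base composition of the miRNA. Of the miRNA names in the tables, 1603 matched a RefSeq sequence, among them 641 tested and 136 called. Across these 641, the share of G and C had a Spearman correlation of 0.28 (Pearson 0.25) with the P3 A minus P3 B difference, and 0.38 (Pearson 0.37) across the 177 with a mean of at least 100 over the 12 libraries. At the other stages the same correlation lay between -0.18 and 0.10. miRNAs are not independent replicates, all of a stage share 2 libraries, and no p is given. For the 111 miRNAs under 40% GC the median A minus B difference was -0.50, and for the 118 at 60% or more it was 0.09.

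With the P3 minus P0 difference the correlation was 0.08 for GC and -0.01 for length. Of the 111 miRNAs under 40% GC, 29 were lower (26.1%) and 9 higher (8.11%). Of the 206 from 40% to under 50%, 37 were lower (18.0%) and 9 higher (4.37%). Of the 206 from 50% to under 60%, 27 were lower (13.1%) and 1 higher (0.485%). Of the 118 at 60% or more, 21 were lower (17.8%) and 3 higher (2.54%). Over all 777 tested miRNAs, with or without a sequence, 17.0% were lower and 3.99% higher. The median difference from P0 in the group under 40% was -0.75 for P3 A and -0.27 for P3 B. The part of base composition in single calls was not tested.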

How the data were processed

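The miRNA signal values were used as the authors deposited them: normalized, not whole reads, and with no step from which reads could be recovered, so that the depth is unknown and only the pools give precision. The mRNA values are RPKM, deposited by the authors. The GRCm38/mm10 build, SAMtools 0.1.18 and Bowtie 0.12.8 are named, per the submitters' processing notes, without a role for each. Small-RNA libraries were made with a TruSeq kit and RNA with Trizol, per the labels' protocols.

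Values were tested with limma 3.58.1 (R 4.3.3) on log2(value + 1), with an intensity trend, stage as a factor, 6 residual degrees of freedom and Benjamini-Hochberg adjustment. This was done for miRNAs and, separately, for genes with at least 1 RPKM in at least 2 libraries. Lists, cell markers and host genes were chosen with earlier results of these data known. Named miRNAs were the 10 most abundant, the 10 largest rises and falls among called miRNAs with a mean of at least 100, up to 3 called members per list (or its most abundant), and the 5 that differed most between the P3 pools at that level; others were named to complete a family, cluster, strand pair or host, and miR-375-3p and miR-7688-5p after their values were seen. The fit was tested on simulated data. Of the tested miRNAs, 32 had 12 values equal to another's (8 called). Tables and figures used Python 3.11.15. Alternatives covered pseudocount, filter, scaling, variance model, samples and replicate block.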

Additional observations from a re-analysis of the deposited data

How the results depend on the processing

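Higher and lower calls, 31 and 132 in all, changed most with the samples. Leaving out each pool in turn gave 8 to 64 higher and 13 to 228 lower, with a median difference of -0.4 to -0.22. Fitting only the P0 and P3 libraries gave 9 and 14, and library weights, which weighted the P3 pools at 0.339, gave 19 and 67. Median-ratio rescaling gave 55 and 48 with a median of -0.016, and quantile normalization 42 and 48 with -0.011, where miR-23b-3p turned from -0.48 to 0.035 (adjusted p = 0.89). With no filter on low values, 78 were lower and the median was -0.022, and with a pseudocount of 10 the median was -0.106. Rescaling together with leaving out a P3 pool was chosen after seeing the data: without P3 A it gave 25 lower with a median of -0.001, and without P3 B 120 higher with a median of -0.109, and miR-540-3p turned to 0.906. The cause of these changes was not tested. The replicate block gave 32 higher and 116 lower. The letters A and B did not pair the stages: correlations of A minus B between stages ran from -0.23 to 0.08. The other alternatives kept counts within 1.5 times. Of 45 named calls, 14 held under all alternatives run other than rescaling with a P3 pool left out: miR-182, miR-183 and miR-9 on both strands, miR-96-5p, miR-124-3p, miR-99b-5p, miR-31-3p, miR-345-5p, miR-133b-3p, miR-146b-5p and miR-411-3p. The planned count test was not run, since the values hold no reads.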
